A study of Mus musculus with 8 samples.

Results

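The Bcl6 gene lies on chromosome 16 of the mouse genome (GRCm38, minus strand, 23965052 to 23988852, ENSMUSG00000022508.5), and its contacts were read from in situ Hi-C libraries of activated B cells. In situ Hi-C joins DNA ends that lie close together in fixed nuclei, so that the count of read pairs between 2 genomic bins measures how often they were in contact. The members are the 50 kb bin that holds the Bcl6 start (chr16:23949662-24000034) and every bin within 2 Mb of it, which makes 81 of 48088 autosomal bins. All 81 were among the 47332 bins that could be used. The other 80 are called partner bins and are numbered by their place, with minus signs toward lower and plus signs toward higher coordinates. In this window 28 protein-coding genes start and 29 overlap it. The body of Lpp covers bins +8 to +20, Tprg starts in bin +26 and Trp63 in bin +34, while 25 of the 28 starts lie in bins -40 to 0.

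Naive splenic B cells of male mice, aged 6 to 12 weeks and of a C57BL/6 Pep3b background, were isolated by negative selection, labelled with CellTrace Violet (CTV), a dye that is diluted at each division, and stimulated with 25 µg/ml of lipopolysaccharide (LPS), a bacterial wall component that activates B cells. The 3 h and 10 h groups were collected at those times after stimulation, and the imminent division group at 33 h. The pre-S group was also collected at 33 h, from FUCCI transgenic mice, whose fluorescent reporters mark cell cycle stages. It was gated on cells in G1 phase. The imminent division sort had no cell cycle gate, and the paper calls that group bulk, so it can also hold cells in G1. Each of the 4 groups held 2 libraries. All groups were LPS-stimulated, CD69+ and undivided by CTV, and unstimulated cells were not analysed here. The reporter strain and the G1 gate went together with the pre-S label and cannot be told apart. Contact counts carry no transcripts, so the labelled cell type was not checked by its markers, and fewer cells with a contact cannot be told apart from a weaker contact in each cell.

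The libraries held 88703088 to 218945191 read pairs, of which 70.9 to 75.1% of the autosomal pairs were within a chromosome. The imminent division replicate 2 library stood apart from the other 7. It had 3.74% of its read ends on chromosome X, against 2.39 to 2.84% in the others, and 0.0490% on chromosome Y, against 0.0804 to 0.123%. Whether this library came from male mice only, as the paper states for its experiments, was not tested. Changes of the Bcl6 bin that passed a threshold in imminent division are also given without it.

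Bcl6 is a transcriptional repressor that B cells need to form and keep germinal centres, where they mutate their antibody genes. It holds back, among others, Prdm1, which encodes the plasma cell regulator Blimp-1, and it acts through co-repressors such as Ncor1 and histone deacetylases. The gene sits at the edge of a long stretch with few genes that runs over Lpp, and in human germinal centre B cells a distal enhancer cluster in this stretch is known to regulate it. Chromatin contacts are commonly held within topologically associated domains (TADs), and CTCF, which binds a directional DNA motif, is found at many TAD boundaries.

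The starts of the 3 genes that the results turn on are given here (GRCm38.p6, gene strand, 5′ to 3′). Each window is the 250 bases before a RefSeq transcript start, and for Lpp only the first listed start was taken. They are shown because these starts place the genes in their bins and because MboI, the enzyme that made the Hi-C fragments, cuts at GATC. Bcl6 has 2 such windows, at chr16:23988853-23989102 and at chr16:23981284-23981533, both on the minus strand, and the latter lies in an intron of the gene. The Lpp window is chr16:24393100-24393349 (plus strand, bin +8) and the Tprg window chr16:25286567-25286816 (plus strand, bin +26). Capitals mark every match, on either strand, to 3 motifs: the E-box CACGTG, the STAT-type palindrome TTCNNNGAA and the CTCF core CCACNAGGG, which reads CCCTNGTGG on the other strand.
Bcl6 window 1: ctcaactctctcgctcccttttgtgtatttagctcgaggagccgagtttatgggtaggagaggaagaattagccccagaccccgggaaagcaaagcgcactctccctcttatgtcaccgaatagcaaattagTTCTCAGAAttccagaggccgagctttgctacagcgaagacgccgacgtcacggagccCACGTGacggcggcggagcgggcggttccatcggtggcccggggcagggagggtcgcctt
Bcl6 window 2: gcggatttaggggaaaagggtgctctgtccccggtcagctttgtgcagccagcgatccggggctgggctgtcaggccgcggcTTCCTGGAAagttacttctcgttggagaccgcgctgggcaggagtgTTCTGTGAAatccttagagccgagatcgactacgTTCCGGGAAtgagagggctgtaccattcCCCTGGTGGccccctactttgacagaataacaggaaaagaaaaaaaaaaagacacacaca
Lpp: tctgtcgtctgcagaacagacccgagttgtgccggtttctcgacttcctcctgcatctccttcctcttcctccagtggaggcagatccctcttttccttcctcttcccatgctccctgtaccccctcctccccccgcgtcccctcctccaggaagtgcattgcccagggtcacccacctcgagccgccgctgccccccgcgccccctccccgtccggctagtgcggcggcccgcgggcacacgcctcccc
Tprg: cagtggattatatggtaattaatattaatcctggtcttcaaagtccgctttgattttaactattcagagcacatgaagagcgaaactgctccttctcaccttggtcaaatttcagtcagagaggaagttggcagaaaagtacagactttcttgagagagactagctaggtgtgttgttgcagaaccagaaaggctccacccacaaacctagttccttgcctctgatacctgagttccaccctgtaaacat
The 2 Bcl6 windows held 4 STAT-type matches, at positions 133 of window 1 and 83, 129 and 163 of window 2. Window 1 held the E-box match at position 191, and window 2 held the only CTCF core match, also at position 191. The Lpp and Tprg windows shown held none of the 3 motifs. Among 32851 RefSeq windows of the same length, 6.02% held the E-box, 7.02% the STAT-type palindrome, 1.24% the CTCF core and 41.9% a GATC site. Bcl6 window 2 held 2 GATC sites, the Lpp window 1 and the others none. These matches describe the letters and were not tied to any bound factor.

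The contacts of the Bcl6 bin were strongly one-sided. Observed over expected (O/E) contact is the count of a bin pair divided by the mean count of all autosomal pairs at the same distance in the same library, so that 1 is the genome average. For a stretch of bins it is the summed count divided by the sum of those means, so that nearer bins weigh more. Over bins +21 to +28, from the end of Lpp into Tprg, the O/E was 17.3 and 15.1 at 3 h and 16.5 and 16.2 at 10 h. It was 11.3 and 12.1 in imminent division and 13.5 and 13.2 in pre-S. All 8 libraries were thus more than 10-fold above the genome average there, and the 4 libraries of the 33 h groups lay below the 4 earlier ones. Over the Lpp body, bins +8 to +20, the O/E was 7.93 and 8.201 at 3 h and 7.11 and 6.61 at 10 h. It was 5.51 and 6.29 in imminent division and 5.68 and 5.89 in pre-S. From the end of Tprg on, in bins +29 to +40, the mean of the 8 libraries was back at 1.43. On the other side, bins -1 to -7, which hold Sst and Rtp2, were depleted, at 0.490 over the 8 libraries, and bins -8 to -20 and -21 to -40 were at 1.47 and 1.195.

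**Figure D1:**
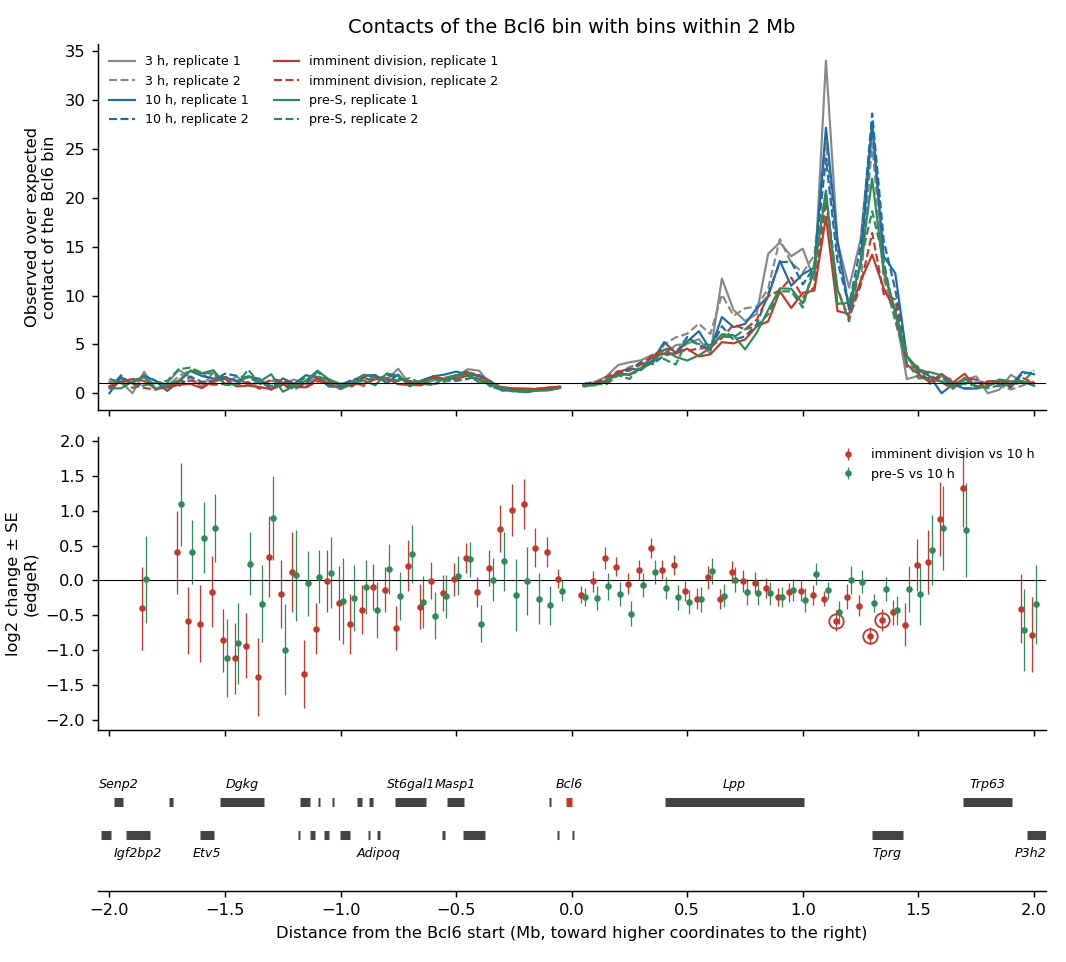
Contacts of the Bcl6 bin with bins within 2 Mb: O/E contact of each of the 8 libraries (top, linear axis), log2 change ± SE against 10 h of the 70 tested partner bins in imminent division and pre-S (middle, rings mark DIs) and protein-coding genes (bottom), all against the distance from the Bcl6 start in Mb. Contact rises over Lpp to peaks at bins +22 and +26 in all libraries, the imminent division libraries are lowest at bin +26, and the 3 rings lie at bins +23, +26 and +27.

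The 5 partner bins with the largest mean O/E, among those more than 2 bins away, were all on the Lpp and Tprg side. Bin +22 (chr16:25049284-25099903), which overlaps no protein-coding gene, had the largest value, with an O/E of 34.0 and 25.6 at 3 h, 27.2 and 24.0 at 10 h, 18.1 and 19.7 in imminent division and 20.8 and 20.6 in pre-S. The group ranges of 3 h and 10 h overlapped, and both 33 h groups lay below them. Bin +26 (chr16:25249843-25300001), which holds the start of Tprg, a gene named for its regulation by p63, had an O/E of 27.7 and 25.6 at 3 h, 27.5 and 28.6 at 10 h, 14.2 and 16.4 in imminent division and 21.96 and 18.6 in pre-S. Here pre-S lay between the earlier groups and imminent division, with no overlap. Bins +25, +27 and +18 followed, with means of 13.05, 12.6 and 12.5, of which +27 lies in Tprg and +18 in Lpp, an adaptor protein of cell adhesion sites. The values fell off steeply past Tprg, from a mean of 9.07 in bin +28 to 3.08 in bin +29. The lowest mean of all 80 partner bins, 0.260, was in bin -4, which holds no protein-coding gene.

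A differential interaction (DI) is a bin pair that passed a false discovery rate (FDR) of 5% in edgeR's quasi-likelihood test over all 1458136 autosomal bin pairs tested. Of the 80 partner bins, 70 passed the filter on low values. The 10 that did not were bins -40 to -38, -36, -35, +33 and +35 to +38, and nothing is said of their change. From 10 h to imminent division 3 of the 70 contacts of the Bcl6 bin weakened and none strengthened, where 1.33% of all bin pairs weakened and 0.694% strengthened. No contact of the Bcl6 bin was a DI from 3 h to 10 h (6.86e-05% weaker and 0.000549% stronger over all pairs), from 10 h to pre-S (0.255% and 0.339%) or between imminent division and pre-S (0.214% and 0.147%). With 100 kb bins 6 contacts passed from 10 h to pre-S and 4 between the 33 h groups. Offsets that took in each bin's coverage gave 6 in the latter, with no shares of all pairs given for either setting. At an unadjusted p under 0.05 there were 5, 6 and 18 such contacts in these 3 comparisons, and 18 from 10 h to imminent division. For these and all later counts at an unadjusted p, the share of all features is not given. They are therefore not read as results about the window.

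The 3 weakened contacts were with bins +23, +26 and +27. The normalized count, scaled to the average library, between the Bcl6 bin and bin +26 was 173.5 and 159.2 at 3 h, 178.4 and 196.2 at 10 h, 102.6 and 113.1 in imminent division and 158.8 and 139.8 in pre-S. Both imminent division libraries lay below the other 6. The log2 change from 10 h was -0.80 ± 0.12 (SE, n = 2 per group, edgeR FDR 2.2e-06). It was -0.86 (FDR 1.6e-04) without imminent division replicate 2 and stayed an edgeR DI without any single library, at -0.72 to -0.86. From 10 h to pre-S the change of the same contact was -0.33 ± 0.13 (FDR 0.270), and between pre-S and imminent division it was -0.47 ± 0.13 (FDR 0.0865). The step between the 2 groups of 33 h therefore missed the threshold, except when the offsets took in each bin's coverage (-0.78, FDR 1.8e-04).

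Bin +23 (chr16:25099900-25149920), between Lpp and Tprg, had normalized counts of 115.4 and 107.3 at 3 h, 118.6 and 107.0 at 10 h, 66.88 and 82.15 in imminent division and 74.58 and 89.72 in pre-S. Both 33 h groups lay below both earlier groups. The changes from 10 h were -0.58 ± 0.15 (FDR 0.0154) for imminent division and -0.46 ± 0.17 (FDR 0.214) for pre-S. Bin +27, in Tprg, had normalized counts of 81.15 and 74.04 at 3 h, 89.79 and 104.6 at 10 h, 68.55 and 63.42 in imminent division and 85.01 and 96.39 in pre-S. All other 6 libraries lay above both imminent division ones. This contact changed by -0.57 ± 0.16 (FDR 0.0271) from 10 h to imminent division and by -0.12 ± 0.17 (FDR 0.853) to pre-S. Leaving out either 10 h library or imminent division replicate 1 left 1 DI of the Bcl6 bin, and leaving out imminent division replicate 2 left 2, with bin +23 at -0.74 (FDR 0.0193) and bin +27 lost (-0.50, FDR 0.165). DESeq2 and thinning to the shallowest library also left 1 DI, and with offsets per distance bin +27 was lost (-0.45, FDR 0.101). Bin +22, with the largest O/E, lay at -0.26 ± 0.11 (FDR 0.2045) from 10 h to imminent division and missed the threshold. It passed with TMM factors (-0.48, FDR 0.0071), bin coverage (-0.51, FDR 0.0046) and offsets per distance (-0.39, FDR 0.0377).

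Summing over distance gave counts large enough to compare the sides. Contacts of the Bcl6 bin were added up over 1 to 7, 8 to 20 and 21 to 40 bins on each side, each scaled to the whole genome's counts at those distances, and tested with edgeR over all autosomal bins. From 10 h to imminent division 4 of the 6 sums changed (34.6% of all sums did), from 10 h to pre-S 3 of 6 (29.9%), between pre-S and imminent division 3 of 6 (7.8%), and from 3 h to 10 h none (0.523%).

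On the Lpp side, both 33 h groups lost contact over bins +8 to +20 and +21 to +40, relative to the genome at the same distance. The normalized sum over bins +8 to +20 was 1589 and 1620 at 3 h, 1431 and 1328 at 10 h, 1023 and 1193 in imminent division and 1090 and 1123 in pre-S. The 33 h libraries were all below the 10 h ones, and these were below the 3 h ones. The changes from 10 h were -0.31 ± 0.08 (FDR 6.7e-04) in imminent division and -0.32 ± 0.08 (FDR 0.0016) in pre-S, with 0.00 ± 0.08 between the 2 (FDR 0.986), and from 3 h to 10 h -0.22 ± 0.08 (FDR 0.249). With autosomal cis totals in place of those of the distance class the change to imminent division turned to 0.14 (FDR 0.0592), and that to pre-S was -0.15 (FDR 0.101). Without 10 h replicate 1 the 2 changes were -0.26 (FDR 0.0638) and -0.26 (FDR 0.0788), without pre-S replicate 1 the latter was -0.29 (FDR 0.0650), and without imminent division replicate 2 the former was -0.43.

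Over bins +21 to +40 the normalized sum was 1095 and 968 at 3 h, 1076 and 1062 at 10 h, 754 and 810 in imminent division and 886 and 844 in pre-S. The 3 h and 10 h groups overlapped, pre-S lay below them and imminent division below pre-S. The changes from 10 h were -0.45 ± 0.08 (FDR 7.5e-07) and -0.30 ± 0.08 (FDR 0.0025), with -0.15 ± 0.08 (FDR 0.274) between the 33 h groups, which passed at -0.32 (FDR 1.2e-04) once offsets included bin coverage. Without imminent division replicate 2 the first was -0.50 (FDR 1.2e-07), and with autosomal cis totals the 2 changes were -0.21 (FDR 0.0077) and -0.14 (FDR 0.141). The change to pre-S also missed the threshold without 10 h replicate 1 (FDR 0.0556) or pre-S replicate 2 (FDR 0.0641). Over bins +1 to +7, which hold no protein-coding gene, the sums were 894 and 770 at 3 h, 719 and 755 at 10 h, 696 and 783 in imminent division and 637 and 607.5 in pre-S. Only pre-S changed from 10 h (-0.24 ± 0.09, FDR 0.0235), and imminent division was above pre-S by 0.25 ± 0.08 (FDR 0.0428). The former call was lost in 7 of 13 alternatives, namely without either 10 h library (FDR 0.0701 and 0.213) or either pre-S library (FDR 0.0934 and 0.175), by DESeq2 (FDR 0.119), with cis totals (-0.16, FDR 0.129) and once offsets included bin coverage (FDR 0.0584). The latter was lost in 8 of 13, being 0.16 (FDR 0.312) without imminent division replicate 2, 0.08 (FDR 0.480) with bin coverage, and past the threshold neither by DESeq2 (FDR 0.365), with the replicate block, nor without either library of 10 h (FDR 0.0740 and 0.0736) or pre-S (FDR 0.211 and 0.309). Imminent division itself lay at 0.01 ± 0.08 (FDR 0.967) from 10 h, its 2 libraries on either side of the 10 h ones, and at 0.31 (FDR 1.7e-04) with cis totals.

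On the Sst side the 2 groups of 33 h differed. Over bins -1 to -7, which hold Sst, the gene of the hormone somatostatin, and the receptor transporter genes Rtp2 and Rtp4, the normalized sum was 246 and 203 at 3 h, 239 and 241 at 10 h, 291 and 302 in imminent division and 215 in both pre-S libraries. Both imminent division libraries were the highest of the 8 and the pre-S ones lay below 10 h. The change was 0.31 ± 0.11 (FDR 0.0232) from 10 h to imminent division, -0.16 ± 0.13 (FDR 0.3625) to pre-S, and 0.46 ± 0.12 (FDR 0.0051) between them. Without imminent division replicate 2 these were 0.28 (FDR 0.0648) and 0.43 (FDR 0.0340) for the 2 involving it, and DESeq2 passed neither (FDR 0.140 and 0.161). The former was also lost without either 10 h library (FDR 0.131 and 0.138) and with bin coverage (0.18, FDR 0.159), and the latter without either pre-S library (FDR 0.130 and 0.0841). Over bins -21 to -40, which run from Liph to Fetub, the sum was 153 and 147 at 3 h, 158 and 149 at 10 h, 104 and 115 in imminent division and 157 and 162.5 in pre-S. Imminent division alone was low, by -0.47 ± 0.14 (FDR 0.0031) against 10 h and by -0.54 ± 0.14 (FDR 0.0052) against pre-S. Without imminent division replicate 2 these were -0.55 (FDR 0.0044) and -0.62 (FDR 0.0139). The former missed the threshold without 10 h replicate 1 (FDR 0.0609) and with cis totals (-0.24, FDR 0.121), the latter without either pre-S library (FDR 0.0847 and 0.0875), and both did by DESeq2 (FDR 0.0639 and 0.186). Over bins -8 to -20, with St6gal1, a sialyltransferase gene, and Masp1, a complement protease gene, no comparison passed the threshold, and the change from 10 h to imminent division was -0.19 ± 0.11 (FDR 0.166), or -0.34 (FDR 0.0228) without imminent division replicate 2. This change depended on the scaling, with -0.32 (FDR 0.0043) for bin coverage and an opposite 0.27 (FDR 0.0308) for cis totals, which also gave 0.28 (FDR 0.0478) against pre-S.

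**Figure D2:**
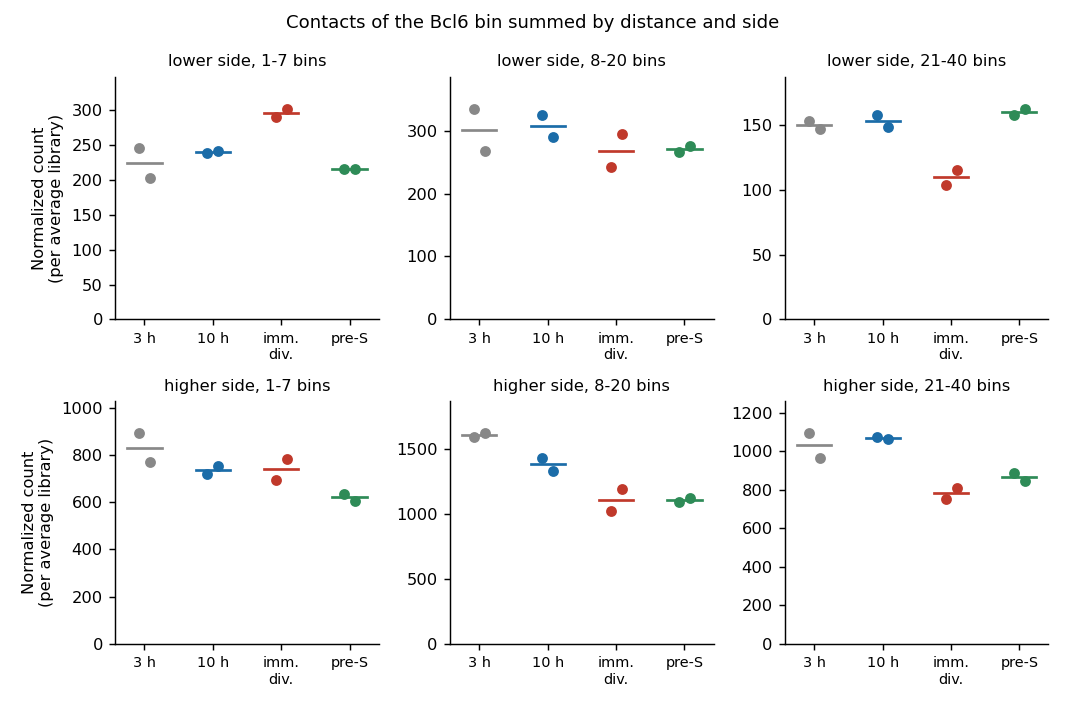
Normalized counts of the Bcl6 bin summed over 3 distance ranges on the lower (top) and higher (bottom) side, 1 point per library and a line at the mean of 2, on linear axes from 0. Imminent division is highest in the lower 1 to 7 bins and lowest in the lower 21 to 40 bins, while both 33 h groups are below 10 h in the higher 8 to 20 and 21 to 40 bins.

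The bin pairs of the whole window showed what happened around these contacts. Of 2230 pairs tested, 83 strengthened and 52 weakened from 10 h to imminent division, beside 0.694% and 1.33% of all autosomal pairs. In this and all other counts of bin pairs, such shares are over autosomal pairs of any distance. Shares at the distances of the window alone were not set beside them. From 10 h to pre-S 2 strengthened and 19 weakened (0.339% and 0.255% of all pairs), and from pre-S to imminent division 17 strengthened and 2 weakened (0.147% and 0.214%). None changed from 3 h to 10 h by edgeR, where 141 pairs were under an unadjusted p of 0.05. DESeq2 called 1, 0 and 0 pairs in the first 3 of these comparisons. Thinning to the shallowest library left 12, 6 and 1, and leaving out a library of the groups compared left 14 to 64, 1 or 2, and 2 to 14 pairs, with 58 and 4 without imminent division replicate 2.

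Inside the domain that runs from Bcl6 to Tprg, more pairs weakened than strengthened in both 33 h groups. Of the 351 pairs with both ends in bins +1 to +27, 32 weakened and 3 strengthened from 10 h to imminent division (1.33% and 0.694% of all autosomal pairs), and 17 weakened and none strengthened from 10 h to pre-S (0.255% and 0.339%), with median log2 changes of -0.22 and -0.28. Within the Lpp body alone, 6 and 5 of 78 pairs weakened, to be read against the same shares of all pairs, as are those past the domain. The pair of bins +9 and +20, near the 2 ends of Lpp, had normalized counts of 94.93 and 93.29 at 3 h, 93.49 and 103.8 at 10 h, 62.09 and 75.69 in imminent division and 61.74 and 48.18 in pre-S. It fell by 0.84 ± 0.19 on the log2 scale from 10 h to pre-S (edgeR FDR 0.00998), with both 33 h groups below both earlier ones. Past the domain, over bins +28 to +40 with Trp63, the gene of the epithelial transcription factor p63, the direction was the opposite: 34 of 78 pairs strengthened and none weakened in imminent division, with a median of 0.62, and 2 strengthened in pre-S, with a median of 0.37.

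Across the Bcl6 bin, pairs that join the Sst side to the domain were among those that strengthened in imminent division. Of 833 pairs that span the Bcl6 bin, 26 strengthened and 9 weakened from 10 h to imminent division (0.694% and 1.33% of all pairs). None did from 10 h to pre-S (0.339% and 0.255%). In imminent division 12 were stronger and 1 weaker than in pre-S (0.147% and 0.214%). The 26 joined bins -10 to -1 with bins +1 to +23, and 4 of the 9 that weakened joined bin -1 with bins +25 to +28. Counts were low in the strengthened pairs: bins -4 and +3 had 2 and 1 read pairs at 10 h and 17 and 19 in imminent division (log2 change 2.63 ± 0.67, FDR 0.0143). On the Sst side itself, bins -4 and -1 had normalized counts of 58.26 and 57.05 at 3 h, 52.44 and 44.64 at 10 h, 92.15 and 96.45 in imminent division and 49.11 and 41.33 in pre-S. Both imminent division libraries were far above the other 6, by 0.97 ± 0.18 against 10 h (FDR 1.4e-04).

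**Figure D3:**
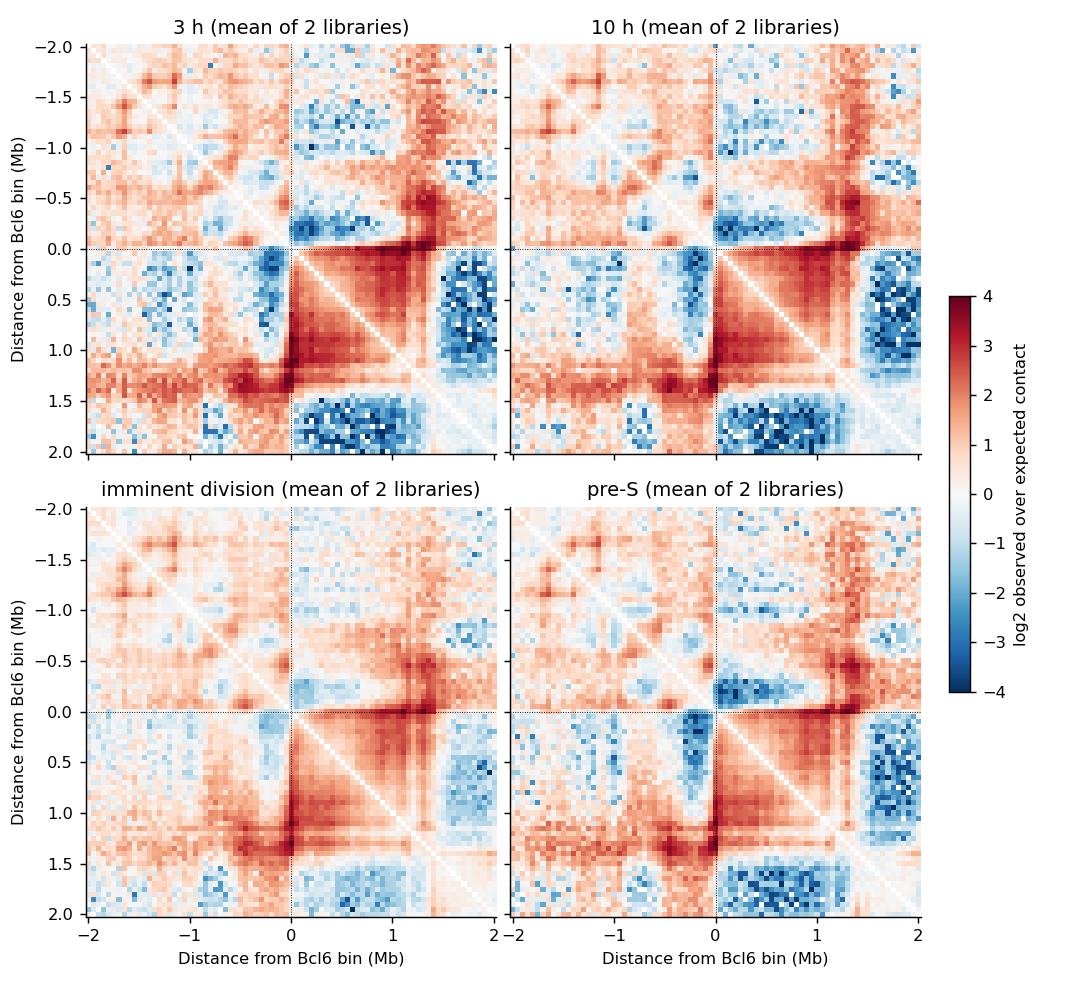
O/E contact (log2 colour scale, -4 to 4) of all pairs of the 81 bins, mean of 2 libraries per group, with dotted lines at the Bcl6 bin. The block from Bcl6 to 1.4 Mb and the blue blocks on either side of it appear in all 4 groups. The block is paler in both 33 h groups than at 10 h, and the blue blocks are palest in imminent division.

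**Figure D4:**
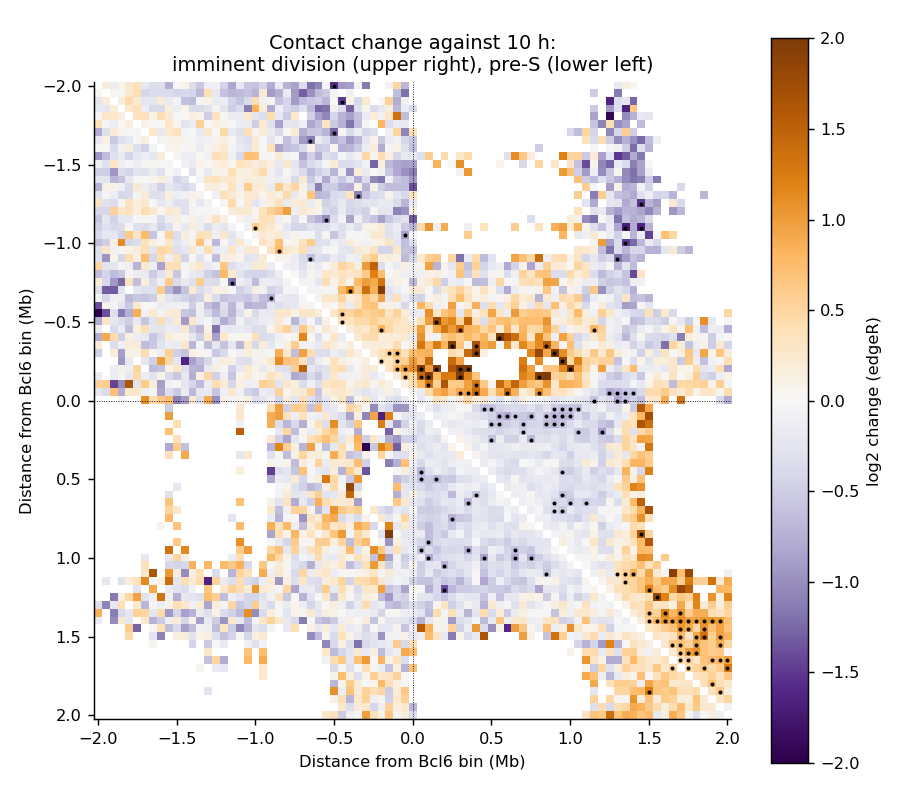
Log2 change of each tested bin pair against 10 h (edgeR, colour scale -2 to 2), for imminent division above and pre-S below the diagonal; dots mark DIs and blank cells were not tested. Of the 83 strengthened pairs of imminent division, 26 lie across the Bcl6 bin, 13 below it and 44 above it, and weakened pairs lie inside the domain in both groups.

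The insulation score measures how well a bin separates its neighbours: it is the log2 of the mean count between the 10 bins on either side, less the median of all bins of that library, and is low at a boundary. The Bcl6 bin was a boundary in all 4 groups, the lowest score within 5 bins in each. Its score was -1.01 and -1.06 at 3 h, -1.12 and -1.135 at 10 h, -0.39 and -0.30 in imminent division and -1.34 and -1.12 in pre-S. Both imminent division libraries lay above the other 6. In limma the score rose by 0.78 ± 0.07 from 10 h to imminent division (FDR 1.3e-05) and was 0.88 ± 0.07 above pre-S (FDR 1.9e-05), whereas the change from 10 h to pre-S was -0.10 ± 0.07 (FDR 0.248) and from 3 h to 10 h -0.09 ± 0.07 (FDR 0.698). Without imminent division replicate 2 the first 2 values were 0.73 and 0.83, both past the threshold. They were 0.43 and 0.40 with 20 bins on either side and 0.80 and 1.19 with 5, past the threshold in each. With 5 bins the change from 10 h to pre-S also passed, at -0.39 (FDR 0.0023).

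Of 46751 autosomal bins scored, 52 rose more than the Bcl6 bin from 10 h to imminent division and 48 rose more against pre-S. Among the 2517 bins that were the lowest within 5 bins at 10 h, the median change was 0.07 in both comparisons, and 12 and 8 of them rose more than the Bcl6 bin. In the order of all bins, 4.02% scored below the Bcl6 bin at 10 h, 3.11% in pre-S and 26.97% in imminent division. At the far end of the domain, bin +28, in Tprg, was also the lowest within 5 bins in all 4 groups, with means of -0.77 ± 0.10, -0.91 ± 0.12, -0.27 ± 0.06 and -0.77 ± 0.13 (SD, n = 2) at 3 h, 10 h, imminent division and pre-S. It rose by 0.63 ± 0.08 (FDR 5.5e-05) from 10 h to imminent division, by 0.13 ± 0.08 (FDR 0.169) to pre-S, and differed by 0.50 ± 0.08 (FDR 0.0030) between the 33 h groups.

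Of the 81 bins, 21 rose and 40 fell from 10 h to imminent division, beside 25.6% and 33.0% of all bins, and 12 rose and 44 fell from 10 h to pre-S, beside 25.7% and 35.0%. All 13 bins of the Lpp body fell in both comparisons, with medians of -0.56 and -0.50, and all 12 bins from +29 to +40 rose in both, with medians of 0.55 and 0.38. Between pre-S and imminent division 13 bins rose and none fell (6.52% and 2.43% of all bins). From 3 h to 10 h none of the 81 changed by limma (0.00642% and 0.0278%), with 14 at an unadjusted p under 0.05. The 13 were bins -2 to +2 and +25 to +32, around both edges of the domain, and the count was 6 without imminent division replicate 2 and 4 without pre-S replicate 1.

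**Figure D5:**
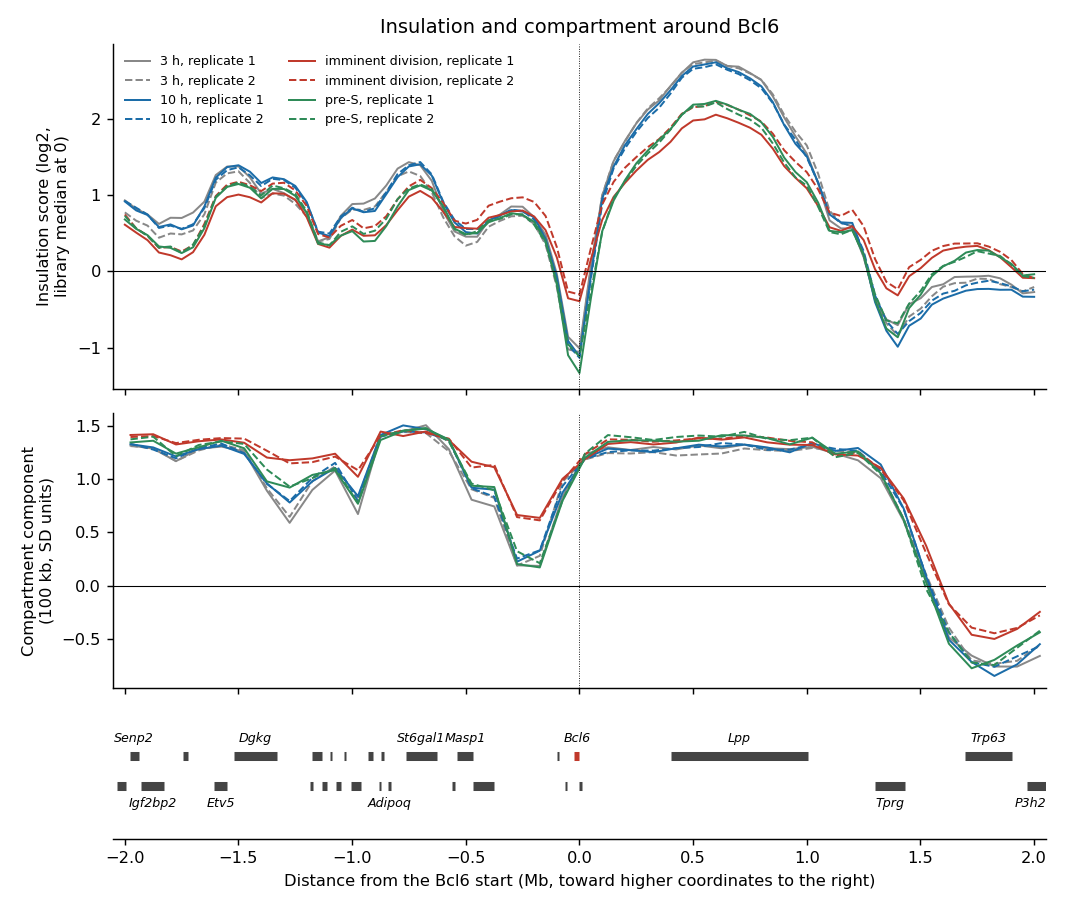
Insulation score of each 50 kb bin (top), compartment component of each 100 kb region (middle) and protein-coding genes (bottom) against the distance from the Bcl6 start in Mb, 1 line per library. The dip at Bcl6 reaches about the same depth in 3 h, 10 h and pre-S and is shallower in both imminent division libraries (-0.39 and -0.30), and the compartment component stays positive from -2 Mb to past Tprg.

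The boundary ratio compares the reads that a 100 kb region shares with the 1 Mb below it with those it shares with the 1 Mb above it. At the Bcl6 region (chr16:23949662-24049504) the log2 ratio of lower over higher was -2.87 and -3.08 at 3 h, -2.795 and -2.84 at 10 h, -2.20 and -2.29 in imminent division and -2.56 and -2.52 in pre-S. The 4 groups did not overlap. In edgeR's test for a change over 1.1-fold, the size of the ratio fell by 0.57 ± 0.06 from 10 h to imminent division (FDR 1.5e-12), the change to pre-S was -0.28 ± 0.07 (FDR 0.0819), and imminent division was 0.30 ± 0.06 nearer to even than pre-S (FDR 0.0250). Without imminent division replicate 2 the 2 values that involve it were -0.62 and -0.35 (FDR 0.0105). The last call was lost without imminent division replicate 1 (FDR 0.169), pre-S replicate 1 (FDR 0.214) or pre-S replicate 2 (FDR 0.0767), and the change to pre-S passed with no fold threshold (FDR 9.4e-04).

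Of the 41 regions of the window, 13 ratios weakened and 3 counted as strengthened from 10 h to imminent division (13.3% and 4.6% of all regions). From 10 h to pre-S 2 weakened and 1 counted as strengthened (2.88% and 2.04%). From pre-S to imminent division 6 weakened and none strengthened (4.91% and 0.611%). None changed from 3 h to 10 h (0.14% and 0.195%, edgeR, with 3 at an unadjusted p under 0.05). The test was of the signed ratio, and all those counted as strengthened had turned to the opposite side. The region of Masp1 and Rtp4 went from 0.08 at 10 h to -0.24 in imminent division, and the others there lay in Trp63. In pre-S a region of Tprg went from 0.09 at 10 h to -0.34. No ratio of the window that kept its side thus passed as stronger. The region just below Bcl6, with Sst and Rtp2, leaned opposite to the Bcl6 region, with ratios of 1.54, 1.76, 1.25 and 1.95 at 3 h, 10 h, imminent division and pre-S. It weakened by 0.51 from 10 h (FDR 8.5e-09) and by 0.70 from pre-S (FDR 1.03e-14) to imminent division. Ratios at bins +18 to +25, at the Tprg end of the domain, also weakened in imminent division, in 4 regions by 0.31 to 0.54.

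The compartment component, the leading axis of the correlation matrix at 100 kb, is positive in the gene-dense, active A compartment. The Bcl6 region had a mean of 1.21, 1.19, 1.21 and 1.22 at 3 h, 10 h, imminent division and pre-S, with no change past the limma threshold in any comparison (FDR 0.514 to 0.846). At 250 kb the region did pass, by 0.06 (FDR 0.0323) in imminent division and 0.08 (FDR 0.0084) in pre-S. Of the 41 regions 36 were positive at 3 h, 10 h and in imminent division and 35 in pre-S, Bcl6, Lpp and Tprg among them, and those of Trp63 were negative in all groups. From 10 h to imminent division 26 regions rose and none fell (13.9% and 15.7% of all regions), to pre-S 12 rose and 2 fell (11% and 13.1%), between the 33 h groups 18 rose and none fell (9.07% and 8.44%), and from 3 h to 10 h 3 rose and none fell (2.89% and 2.54%). The largest rise was in the third region below Bcl6, which overlaps no protein-coding gene, from 0.24 at 10 h to 0.65 in imminent division (FDR 2.8e-05) against 0.26 in pre-S. The 26 were 17 without imminent division replicate 2 and without 10 h replicate 1, and the 14 of pre-S were 2 or 3 without either 10 h library or pre-S replicate 2.

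Promoter interactivity is the summed count of a promoter's bin over those of its contacts that exceed the usual level at their distance. The Bcl6 bin kept 51 such partner bins, 39 of them within 2 Mb, 28 above and 11 below, and bins +1 to +28 held 89.3% of the kept counts. Interactivity is given in log2 CPM, from counts normalized with offsets from a loess curve on abundance over promoter bins, and scaled to the average library. That of the Bcl6 bin was 6.99 in both libraries of 3 h and 6.93 in both of 10 h. It was 7.02 and 7.08 in imminent division and 6.996 and 7.005 in pre-S, above 92.6% of promoter bins on average. The imminent division libraries were the highest and the 10 h ones the lowest. The change from 10 h was 0.12 ± 0.04 (FDR 0.0047) in imminent division and 0.07 ± 0.04 (FDR 0.151) in pre-S, with 0.05 ± 0.04 between them (FDR 0.371). The sums by distance had another scaling, to the genome at those distances. On that scale the sums over bins +8 to +20 and +21 to +40 fell by 0.31 and 0.45 in imminent division. With autosomal cis totals those over bins +1 to +7, +8 to +20 and +21 to +40 lay at 0.31, 0.14 and -0.21. Whether the scaling accounts for the unlike directions was not tested. The call for imminent division was lost without imminent division replicate 2 (0.10, FDR 0.0659), without 10 h replicate 2 (0.11, FDR 0.0623) and when bin coverage entered the offsets (0.04, FDR 0.572).

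The 28 genes that start in the window lie in 22 promoter bins, since Bcl6 shares its bin with Gm37419, Masp1 with Rtp4, and 2 groups of 3 genes share 1 bin each. From 10 h to imminent division 7 genes rose and 1 fell (51.3% of all promoter bins changed), and to pre-S 5 rose (34.5%). Between the 33 h groups 1 rose and 1 fell (19.1%), and from 3 h to 10 h none changed (0.334%). Bcl6 with Gm37419 rose in imminent division and Masp1 with Rtp4 in both 33 h groups, each as 2 genes of 1 bin. Fewer bins than genes thus changed from 10 h, while the shares are of bins. Below Bcl6, Rtp2, the nearest, lay at 0.08 (FDR 0.0663 and 0.152) in both and did not pass. Sst rose by 0.23 (FDR 2.4e-05) and 0.20 (FDR 0.0012) in imminent division and pre-S, Masp1 and Rtp4 by 0.17 (FDR 3.7e-04) and 0.18 (FDR 8.1e-04), and Rtp1 by 0.15 (FDR 0.0013) and 0.18 (FDR 9.9e-04). Trp63 fell by 0.40 (FDR 1.8e-07) from 10 h and by 0.30 (FDR 2.7e-04) from pre-S to imminent division. Of the promoters inside the domain, Lpp differed from 10 h by 0.07 (FDR 0.123) and 0.03 (FDR 0.528) and Tprg by 0.04 (FDR 0.332) and 0.09 (FDR 0.06715), none of which passed the threshold.

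Of 35 other genes of the Bcl6 pathway, in 34 promoter bins, 8 rose and 8 fell from 10 h to imminent division and 6 rose and 6 fell to pre-S, beside 51.3% and 34.5% of all promoter bins that changed, and the medians of -0.004 and -0.02 were near those of all promoter bins, which were both -0.002. Between the 33 h groups 3 rose and 1 fell (19.1% of all), and from 3 h to 10 h none changed. Stat5a and Stat5b, which share 1 bin, count as 2 of the genes that fell. The values of the members are given as a description. Among 8 co-repressors, Ncor1 and the histone deacetylase gene Hdac9 rose, the latter by 0.26 (FDR 1.9e-06) and 0.13 (FDR 0.0241) in imminent division and pre-S, and Hdac4 fell by 0.20 (FDR 2.1e-04) and 0.19 (FDR 0.0022). Among 13 regulators, the transcription factor gene Mef2c rose by 0.24 (FDR 3.5e-05) and 0.30 (FDR 2.3e-05), Fbxo11, of a ubiquitin ligase that acts on BCL6 protein, rose by 0.13 (FDR 0.0039) in imminent division, and Irf8, Mef2b, Stat5a with Stat5b, and Bach2 fell in both groups, Irf8 by 0.20 in each. Pax5, which keeps B cell identity, fell by 0.14 in imminent division (FDR 0.0032), with -0.05 (FDR 0.379) in pre-S and -0.09 (FDR 0.123) between the 33 h groups. Among 14 targets, Prdm1 had 6.39 and 6.63 log2 CPM at 3 h, 6.59 and 6.54 at 10 h, 6.997 and 6.93 in imminent division and 6.78 in both pre-S libraries. It rose in both steps, by 0.40 (FDR 1.1e-08) to imminent division and 0.21 (FDR 0.0012) to pre-S, and the 2 differed by 0.18 (FDR 0.0044). Atr, a checkpoint kinase gene, rose by 0.19 (FDR 4.9e-04) and 0.31 (FDR 1.7e-05), Id2, of an inhibitor of E proteins, by 0.24 (FDR 5.0e-06) in imminent division, and the chemokine receptor gene Cxcr4 fell there by 0.125 (FDR 0.0039).

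The promoter bins outside the window whose interactivity was most like that of Bcl6 over the 8 libraries were those of Rala (Pearson r 0.988), Abcd4 with Vrtn (0.976), Olig3 (0.961), Rtn4rl2 (0.956), and Usp17la with Olfr665 and Olfr666 (0.949). These are descriptions over 8 libraries that share their depth and groups.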

How the data were processed

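In situ Hi-C was read in 8 libraries, 2 of each of 4 groups. The authors trimmed chimeric reads, aligned them with bowtie2 through diffHic to the mm10 genome build named in their processing notes, marked duplicates, removed dangling ends and overlong fragments, and deposited raw counts of read pairs per 50 kb bin pair, 1 library per file. Bins were rebuilt from the GATC sites of GRCm38, and no column of per-sample values lacked a sample (0). Interactions of autosomal bins with a summed count of at least 10 and over 4-fold the interchromosomal background were tested with edgeR 4.0.16 (quasi-likelihood, 4 residual degrees of freedom), with loess offsets (span 0.3) fitted apart below 1.5 Mb. Distance sums, interactivity (at least 200 counts, 2 mean residuals above the distance curve) and boundary ratios (regions of 100 kb, flanks of 1 Mb, glmTreat over 1.1-fold) were tested with edgeR, and insulation and compartments with limma 3.58.1, in R 4.3.3. P-values were adjusted by Benjamini-Hochberg over all features (FDR 0.05).

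All 8 libraries were fitted as 4 groups, and the comparisons were 10 h with 3 h, imminent division and pre-S each with 10 h, and imminent division with pre-S, of which those with 10 h share its libraries. The study's methods call the replicates biological duplicates, without saying whether they were separate mice or cultures. The p-values rest on the spread between these libraries, pooled over the 4 groups and moderated over all features. How much of that spread is technical cannot be told. Deviations of same-numbered libraries had correlations of -0.24 to 0.10 for interactivity and -0.76 to 0.25 for insulation. Both lowest values were between 3 h and imminent division. The labels do not say whether equal numbers mark a shared origin, so they were not taken as pairs. Read pairs counted after duplicate removal are not free of other library effects, and the depth, which differed 2.47-fold, limits the low counts. The alternatives were TMM factors, bin coverage in the offsets, offsets per distance, autosomal cis totals, other bin sizes and flanks, filters, thinning, DESeq2 1.42.0, the replicate block and leaving out each library. The fits were tested on simulated data. Genes named were those of the window, partner bins that passed or had the 5 largest O/E values, fixed lists of co-repressors, regulators and targets of Bcl6, and the 5 promoter bins most like Bcl6. The members and lists were chosen with earlier results of these data known. The authors' blacklist filter was not used here. Some items of the sort and of the gene lists are not reported here by name.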

Additional observations from a re-analysis of the deposited data

Results flagged for a closer look

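The change from 10 h to imminent division differed from the change from 10 h to pre-S, by a test of the difference itself, in 5 measures of the Bcl6 locus. For contacts 1 to 7 bins toward Sst the difference was 0.46 on the log2 scale (edgeR FDR 0.0051), a call that 10 of 13 alternatives kept. There imminent division was up and pre-S was not past the threshold. For contacts 21 to 40 bins toward Liph the difference was -0.54 (FDR 0.0052), kept by 10 of 13 alternatives. For those 1 to 7 bins toward Lpp it was 0.25 (FDR 0.0428), a call that 5 of 13 alternatives kept. The size of the boundary ratio of the Bcl6 region differed by -0.30 (FDR 0.0250), a call that 7 of 10 alternatives kept. The insulation score of the Bcl6 bin differed by 0.88 (limma FDR 1.9e-05), a call that 11 of 11 kept. The alternatives counted take in fits without a library outside the comparison. Both changes share the 10 h libraries, and each group had 2 libraries, of which the pre-S ones came from reporter mice with a G1 gate.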

How the results depend on the processing

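Of 1104 alternative values for 84 results, 969 kept their side of the threshold or a similar count. This total takes in results that passed no threshold and fits without a library outside the comparison. The number of DIs in the window stayed similar in 7 of 16 alternatives in each comparison with a 33 h group. From 10 h to imminent division and to pre-S, it did so in no fit without a compared library. For the Bcl6 bin from 10 h to imminent division the number of DIs stayed similar in 8 of 16, while its insulation call there held in 11 of 11. These counts also take in fits without a library outside the comparison. Among values past the threshold under either setting the direction turned in 4, and among those past it under neither the sign turned in 41. With autosomal cis totals, contacts 8 to 20 bins away went up from 10 h to imminent division, by 0.27 on the Sst side (FDR 0.0308) and 0.14 on the Lpp side (FDR 0.0592), and up against pre-S by 0.28 on the Sst side (FDR 0.0478). With bin coverage in the offsets the Lpp side fell against pre-S by 0.17 (FDR 0.0445). On the Lpp side cis totals also gave 0.30 (FDR 7.2e-04) against pre-S and -0.15 (FDR 0.101) from 10 h to pre-S. Leaving out 1 library gave -0.27 to -0.17 from 3 h to 10 h (past the threshold at -0.22 without either imminent division library), -0.43 to -0.21 from 10 h to imminent division and -0.37 to -0.26 to pre-S.

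The 3 contacts of the Bcl6 bin that changed from 10 h to imminent division became 11 with 100 kb bins, 1 by DESeq2, 5 with TMM factors, 6 with bin coverage, 1 after thinning and 1 to 4 without a library. With 100 kb bins there were 6 from 10 h to pre-S and 4 from pre-S to imminent division, and bin coverage gave 6 in the latter, where none had passed. Shares of all bin pairs called under these alternatives are not given. In the window, none became 2 with 100 kb bins and 1 with bin coverage from 3 h to 10 h. The 135 of imminent division became 210 with 100 kb bins, 1 by DESeq2, 292 with TMM factors, 214 with offsets per distance, 12 after thinning and 14 to 160 without a library. The 21 of pre-S became 61, 0, 42, 11 with bin coverage, 6 after thinning and 1 to 27, and the 19 between the 33 h groups 71, 0, 37, 90 with bin coverage, 7 with offsets per distance, 1 and 2 to 25.

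From 10 h to imminent division the interactivity change of Bcl6 was 0.0357 with bin coverage, not past the threshold (FDR 0.572). It was 0.0965 to 0.152 without a library, and 0.14 (FDR 0.0068) against pre-S with TMM factors. Without a fold threshold 4, 25, 16 and 17 boundary ratios of the window changed in the 4 comparisons, and the Bcl6 region passed from 10 h to pre-S at -0.28 (FDR 9.4e-04). For this and all other counts of regions or bins under an alternative, shares of all regions or bins are not given. Such counts are therefore not read as traits of the window. Between the 33 h groups, leaving out a library gave 3 to 8 ratios and -0.35 to -0.25 at Bcl6. With 5 bins on either side the insulation of Bcl6 fell by 0.39 to pre-S (FDR 0.0023). Insulation counts without a library were 0 to 3 from 3 h to 10 h and 4 to 18 between the 33 h groups. At 250 kb the compartment component of Bcl6 rose by 0.0570 (FDR 0.0323) and 0.0768 (FDR 0.0084) in imminent division and pre-S. Compartment counts without a library were 0 to 4, 17 to 28 and 2 to 16 in the 3 comparisons with 10 h, and 6 to pre-S with quantile normalization.

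The replicate numbers were not taken as pairs, and the replicate block changed 1 of 76 calls. Contacts 1 to 7 bins toward Lpp, imminent division against pre-S, were at 0.25 with FDR 0.0709. With 2 libraries a group and bin pairs of few counts, single contacts rest on little, and those past 1.5 Mb were partly too sparse to test. The cause of the changes with processing was not tested.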
